A study of Mus musculus with 12 samples.

Results

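Genes for 7 selectins and vascular adhesion molecules were followed in the mouse aorta: Selp, Sele, Selplg, Icam1, Icam2, Vcam1 and Madcam1. They were taken by gene symbol from the 22180 genes measured on 12 arrays, and all 7 were measured. The donors were wild-type males, 2 to 5 months old per the labels and kept on regular chow, of the inbred strains 129S6/SvEvTac (129), C57BL/6 (B6) and DBA/2J (DBA). Each strain gave the aortic arch and 129 mice also the aortic root, which makes 4 groups of 3 arrays. Each array held the pooled RNA of 4 to 6 mice, so the spread given here is between pools. One sentence of the series text speaks of apoE strains and of wild-type mice together, and no group label carries a mutation. Array values are log2 intensities, on which a difference of 1 is 2-fold, and n is 3 per group throughout.

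Leukocytes leave the blood in steps. Selectins on activated endothelium and platelets slow the cells by binding sugars carried on scaffold proteins such as PSGL-1, the product of Selplg. Immunoglobulin-family molecules on the endothelium, ICAM-1, ICAM-2, VCAM-1 and MAdCAM-1, then hold them through leukocyte integrins. Inflammatory cytokines induce E-selectin, ICAM-1 and VCAM-1 through NF-kB, and P-selectin is also stored ready-made in the Weibel-Palade bodies of endothelium and in the granules of platelets. In the aorta these molecules are known for the entry of monocytes into early plaques.

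Between strains the P-selectin gene stood alone among the 7 in passing the test. Selp was lower in DBA arch than in 129 and B6 arch, and the test did not separate those 2 strains. Between regions of 129 mice, Vcam1, Sele and Icam1 were higher in the root than in the arch and Selplg was lower. Selp, Icam2 and Madcam1 did not pass between regions. Tests were made with limma, with Benjamini-Hochberg adjustment over all 22180 genes and a threshold of 0.05.

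Smooth muscle genes marked all groups as arterial wall, with Myh11, a myosin of contractile muscle, at 12.80 to 12.94 on every array. Pecam1, an adhesion molecule that marks endothelium, was at 10.67 to 11.05 on every array. B6 arch replicate 1 also held liver transcripts, with a mean of 9.41 over 6 hepatocyte genes against 4.57 to 5.47 on the other 11 arrays. DBA arch replicate 2 held transcripts of heart and lung, with means of 11.96 over 7 cardiomyocyte genes and 9.11 over 6 lung epithelial genes. Values without these arrays are given where they bear on a member. Dntt, a gene of thymocytes, was at 7.39, 6.15 and 6.95 in 129 arch and 7.22 on B6 replicate 3, against 3.06 to 5.67 elsewhere. No fit left out the 129 arch arrays and B6 replicate 3 together. The tissue was bulk, so fewer cells of a type and less RNA per cell cannot be told apart. For Selp and Sele the study lists a DBA sequence that differs from that of the other strains used here. Whether such sequence differences changed the signal of the array probes in DBA was not tested.

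Selp, which encodes the P-selectin that catches leukocytes on platelets and activated endothelium, had log2 values of 6.30, 6.53 and 6.60 in DBA arch. In B6 arch they were 8.72, 7.67 and 7.86, and in 129 arch 7.50, 7.93 and 7.94. Every DBA array lay below every other array of the series, while B6 and 129 overlapped. Selp was 2.49-fold lower in DBA than in 129 arch (log2 difference -1.32 ± 0.26, SE, adjusted p = 0.0487) and 3.05-fold lower than in B6 arch (-1.61 ± 0.26, adjusted p = 0.0208). B6 arch replicate 1, the array with liver transcripts, had the highest value. Without it the difference from B6 was -1.29 (adjusted p = 0.0110). Without both arrays that held other organs it was -1.32 from B6 (adjusted p = 0.0259) and -1.34 from 129 (adjusted p = 0.0137).

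Selp was lower in DBA in all alternatives, whereas the call was not kept in all. Against 129 it no longer passed without any of the DBA arrays (adjusted p = 0.122 to 0.164), any of the 129 arrays (0.0913 to 0.171) or B6 replicate 3 (0.0727). Against B6 it no longer passed without any DBA array (0.0627 to 0.0816) or B6 replicate 3 (0.0530). Over all alternatives the log2 difference from 129 ranged from -1.46 to -1.23 and that from B6 from -1.82 to -1.29, with adjusted p of 0.00438 to 0.385 and 0.00260 to 0.226. Of all genes, 1.44% passed between DBA and 129 arch (0.582% lower in DBA) and 1.55% between DBA and B6 arch (0.694% lower), against 1 of the 7 members in each, lower in both. These contrasts share the DBA arrays.

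B6 and 129 arch had means of 8.08 ± 0.56 and 7.79 ± 0.25 for Selp (SD), and the difference of 0.29 ± 0.26 did not pass (95% interval -0.30 to 0.88, adjusted p = 0.744). It was -0.03 without B6 replicate 1. In the root of 129 mice Selp had values of 7.92, 7.50 and 7.67, all within the range of the 129 arch. The difference between root and arch was -0.09 ± 0.16 (95% interval -0.48 to 0.29, adjusted p = 0.755).

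Markers of the cells that make P-selectin were set beside these values. The 14 endothelial genes had a mean of 9.12 to 9.19 on the DBA arch arrays, 8.92 to 9.24 in B6 and 9.08 to 9.23 in 129, and none of them passed between strains. The 8 platelet and megakaryocyte genes had a mean of 8.86 to 9.68 in DBA arch, 7.71 to 8.92 in B6 and 7.15 to 8.38 in 129. Their median log2 difference was 1.48 between DBA and 129 arch, against 0.00 over all genes, with 7 of 8 not overlapping and none passing. The platelet mean was thus higher in DBA than in 129 arch on every array and overlapped with B6, while Selp was lowest in DBA. Gp9, a platelet glycoprotein, had values of 11.32, 10.77 and 10.45 in DBA arch and 8.16, 9.90 and 9.66 in 129 arch. Their part in the Selp difference was not tested.

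**Figure D1:**
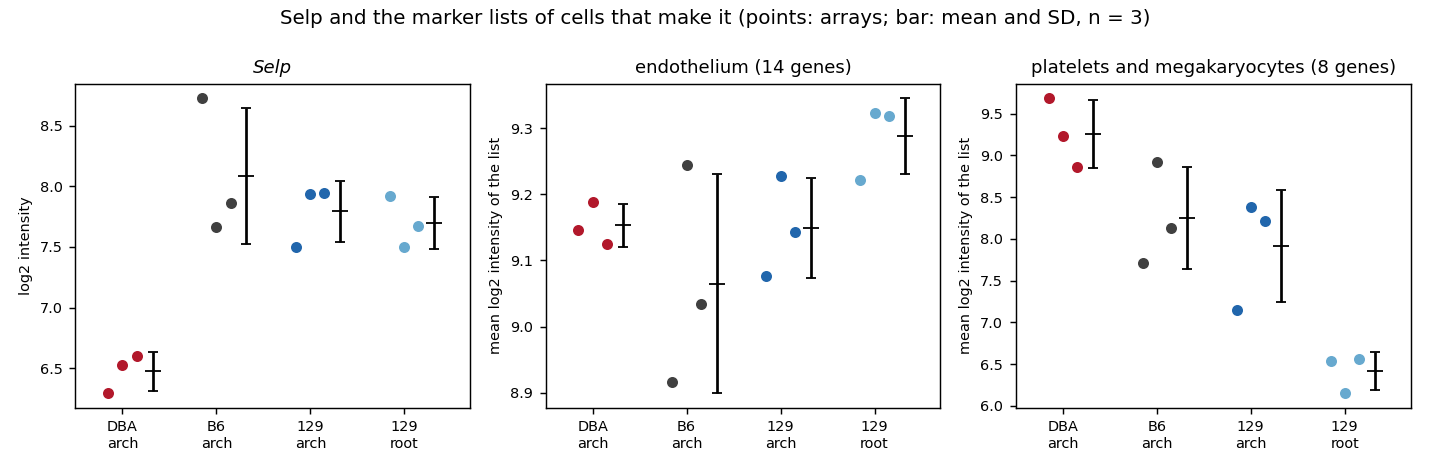
Log2 intensity of Selp and mean log2 intensity of the endothelial and platelet marker lists (vertical axes) in the 4 groups (horizontal axis), with points for arrays and bars for the mean and SD of 3 arrays. Selp lay at 6.30 to 6.60 in DBA arch, below all other arrays, while the platelet list lay at 8.86 to 9.68 in DBA arch and at 6.15 to 6.56 in the root.

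Selp and Sele lie next to each other on chromosome 1 in the reference order of measured genes. Among the 3 measured genes to each side of them none passed between strains. F5, which encodes coagulation factor V and is on the far side of Selp, moved the other way: its log2 difference was 1.81 ± 0.48 between DBA and 129 arch (adjusted p = 0.136) and 1.42 ± 0.48 between DBA and B6 arch (adjusted p = 0.245). In the root F5 was lower than in the arch (-1.86 ± 0.49, adjusted p = 0.0441). That call did not pass without 129 arch replicate 2 or 3 or any root array (up to 0.129, range 0.00404 to 0.129). Slc19a2, a thiamine transporter gene beyond F5, was at -0.26 ± 0.13 between DBA and 129, and Scyl3, a gene of a kinase-like protein on the side of Sele, at 0.05 ± 0.14. Gm16548, Mettl18 and BC055324 had differences of 0.29, -0.57 and 0.28 in that contrast, none past the threshold.

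The 250 bases upstream of the gene starts are shown for Selp and Sele, neighbours of which one differed by strain and the other by region, and for Icam1, which was higher in the root together with Sele. They are of the B6 reference sequence (RefSeq, build GRCm38.p6), each read along the gene, at chr1:164115014-164115263, chr1:164047984-164048233 and chr9:21015690-21015939, all on the plus strand. Capitals mark matches to TATAAA on the gene strand, or to GGANATTCC on either strand, a form of the NF-kB site picked after the sequences had been read.
Selp: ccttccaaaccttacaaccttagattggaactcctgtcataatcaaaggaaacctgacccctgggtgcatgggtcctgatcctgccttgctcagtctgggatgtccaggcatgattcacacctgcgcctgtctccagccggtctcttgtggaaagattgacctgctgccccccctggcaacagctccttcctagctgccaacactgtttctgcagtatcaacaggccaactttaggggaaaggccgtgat
Sele: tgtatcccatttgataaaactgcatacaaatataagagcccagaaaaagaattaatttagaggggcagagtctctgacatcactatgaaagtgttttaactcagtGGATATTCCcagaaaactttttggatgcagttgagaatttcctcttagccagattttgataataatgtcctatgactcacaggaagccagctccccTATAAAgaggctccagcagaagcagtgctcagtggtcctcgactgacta
Icam1: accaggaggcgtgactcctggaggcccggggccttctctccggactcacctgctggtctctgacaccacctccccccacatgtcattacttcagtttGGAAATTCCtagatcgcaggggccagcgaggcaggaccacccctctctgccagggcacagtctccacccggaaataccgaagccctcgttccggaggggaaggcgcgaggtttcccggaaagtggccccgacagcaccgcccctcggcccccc

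Sele held GGATATTCC at 145 to 137 bases before its start and TATAAA at 49 to 44 bases, and Icam1 held GGAAATTCC at 153 to 145 bases. Selp held neither motif. Of 32851 upstream windows of this length, 0.819% held GGANATTCC and 7.59% held TATAAA. GGANATTCC was picked after these sequences had been read, so its share does not measure how unusual the matches are. The usual NF-kB consensus site, searched on both strands, was in 3.9% of windows. It matched in none of these 3 and at 2 places in the window of Madcam1. Upstream sequence was found for 4 of the 7 members, and strain variants were not used here.

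Sele encodes E-selectin, which endothelium makes after stimulation by cytokines. Its log2 values were 5.06, 5.10 and 5.26 in DBA arch, 5.63, 5.32 and 5.49 in B6 arch, and 5.53, 5.49 and 5.47 in 129 arch. The DBA arrays were below all others, by a small margin, and no strain contrast passed. The differences were -0.36 ± 0.11 from 129 (95% interval -0.61 to -0.10, unadjusted p = 0.0114, adjusted p = 0.217) and -0.34 ± 0.11 from B6 (adjusted p = 0.232). In the root the values were 6.94, 6.22 and 6.25, all above every arch array, and root replicate 1 stood above the other root arrays. Sele was 1.96-fold higher in the root than in the arch of 129 mice (95% interval 1.42 to 2.70, adjusted p = 0.0161). Without root replicate 1 the log2 difference was 0.74 in place of 0.97 (adjusted p = 0.00690), and the call was kept in all alternatives (0.00280 to 0.0499).

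Vcam1 encodes VCAM-1, the endothelial ligand of the integrin VLA-4 on monocytes and lymphocytes. It had values of 11.03, 10.80 and 10.94 in the root and of 9.26, 9.42 and 9.46 in the arch of 129 mice. This was the largest difference among the members between root and arch, 2.91-fold (95% interval 2.46 to 3.45, log2 difference 1.54 ± 0.10, adjusted p = 0.000181), and no arch array of any strain reached the root values. Within the arch, DBA had values of 9.97, 9.74 and 9.97, all above 129, and B6 had 9.85, 9.29 and 9.30. The difference of DBA from 129 was 0.51 ± 0.16 (95% interval 0.14 to 0.88, unadjusted p = 0.0121, adjusted p = 0.221) and that from B6 0.42 ± 0.16 (adjusted p = 0.330). The B6 array in the range of DBA was replicate 1, with liver transcripts. Without it the differences from 129 and B6 had adjusted p of 0.0584 and 0.0547, and the B6 to 129 difference turned from 0.10 to -0.09.

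Icam1 encodes ICAM-1, which binds the leukocyte integrins LFA-1 and Mac-1. Values in the root were 8.36, 8.23 and 8.44, against 7.58, 7.72 and 7.55 in the arch of 129 mice, with no overlap. The root was 1.66-fold higher (95% interval 1.41 to 1.94, adjusted p = 0.00291). In the arch of DBA, Icam1 was at 7.44, 7.89 and 7.82, and in B6 at 7.87, 7.34 and 7.28, so that the 3 strains overlapped. B6 overlapped through replicate 1, the array with liver transcripts, and its other arrays were below all those of DBA and 129. The strain differences lay between -0.12 and 0.22, each ± 0.18, with adjusted p of 0.703 to 0.898. Without B6 replicate 1 the difference of DBA from B6 was 0.41 (adjusted p = 0.250) and that of B6 from 129 was -0.30 (adjusted p = 0.508). With all arrays the intervals at 95% reached from -0.53 to 0.63 on the log2 scale.

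Icam2 encodes ICAM-2, an LFA-1 ligand of resting endothelium and platelets. Its group means were 5.94 ± 0.05 in DBA arch, 5.85 ± 0.28 in B6 arch, 6.19 ± 0.18 in 129 arch and 6.07 ± 0.11 in 129 root (SD). The lowest value was 5.55 on B6 replicate 2 and the highest 6.38 on 129 arch replicate 3. No contrast passed, with adjusted p of 0.446 to 0.896, and the root differed from the arch by -0.12 ± 0.12 (95% interval -0.41 to 0.17). DBA and 129 arch did not overlap for Icam2, with the highest DBA array at 5.99 and the lowest 129 array at 6.01.

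Madcam1 encodes the addressin of gut and lymphoid venules, which binds the lymphocyte integrin LPAM-1. It was dim on all arrays, at 3.56 to 4.18, where the median of all probe sets was 4.68 to 4.82. Without detection calls these values cannot be told from background. The group means were between 3.78 and 4.04 and the differences between -0.14 and 0.14, with adjusted p of 0.635 to 0.998.

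Selplg encodes PSGL-1, the leukocyte scaffold to which P-selectin binds. It had values of 8.31, 7.94 and 8.21 in the arch of 129 mice and of 7.72, 7.75 and 7.59 in the root, without overlap. The root was 1.38-fold lower (log2 difference -0.46 ± 0.12, adjusted p = 0.0418). The call was lost without 129 arch replicate 1 or 3 (adjusted p = 0.101 and 0.110) or without any root array (0.0847 to 0.138). It was also lost with all 12 arrays in one fit (0.0912) and with the replicate number as a block (0.0856). The mean of both probe sets of the gene lost it too (0.137), and the range over alternatives was 0.00802 to 0.138. Values in DBA arch were 7.37, 7.63 and 7.92 and in B6 arch 7.36, 7.34 and 7.68, all below the 129 arch arrays. B6 differed from 129 by -0.69 ± 0.17 (unadjusted p = 0.00321, adjusted p = 0.114) and DBA by -0.51 ± 0.17 (adjusted p = 0.253), and neither passed. A second, dimmer probe set of the gene had differences of -0.51 for B6, -0.46 for DBA and -0.34 for the root, none past the threshold.

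PSGL-1 is made by leukocytes, and marker genes of these cells also differed between the groups. The 9 T cell and thymocyte genes had a mean of 6.63 to 7.61 on the 129 arch arrays, 5.24 to 6.14 in DBA arch, 5.16 to 6.94 in B6 arch and 4.45 to 4.65 in the root. All 9 were lower in the root than in the arch of 129 mice. B6 replicate 3 held the highest T cell mean and the highest Selplg value of its group. DBA replicate 3 held the highest Selplg value of its group and the lowest T cell mean, 5.24. The 14 pan-leukocyte and myeloid genes had a mean of 7.11 to 7.43 in DBA arch, 6.72 to 6.99 in B6 arch, 6.91 to 7.30 in 129 arch and 7.39 to 7.42 in the root, with 7 genes higher and 3 lower in the root. The median log2 difference of this list was 0.60 between root and arch. Ptprc, the CD45 of all leukocytes, went the other way. It was at 9.01, 8.20 and 8.52 in 129 arch and 7.63, 7.70 and 7.47 in the root. The part of these cells in the Selplg values was not tested.

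**Figure D2:**
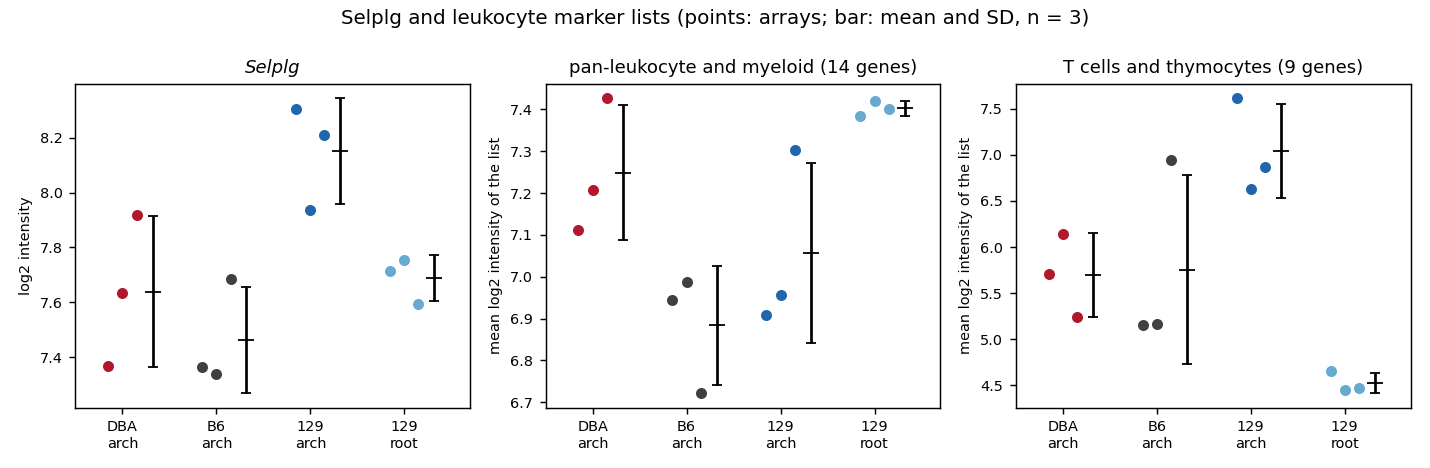
Log2 intensity of Selplg and mean log2 intensity of the pan-leukocyte and T cell marker lists (vertical axes) by group (horizontal axis), with points for arrays and bars for the mean and SD of 3 arrays. The 129 arch arrays were the highest for Selplg, at 7.94 to 8.31, and lay at 6.63 to 7.61 for the T cell list, against 4.45 to 4.65 in the root.

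By group mean, Selp and Sele were lowest in DBA arch, Vcam1, Icam1 and Sele highest in 129 root, and Selplg highest in 129 arch. Between DBA and 129 arch the values of 5 of the 7 members did not overlap, 1 higher and 4 lower in DBA, where 20.9% of all genes did not overlap (10.8% higher and 10% lower). The numbers were 2 of 7 between DBA and B6 (17.1% of all genes) and 1 of 7 between B6 and 129 (17.5%). No member passed between B6 and 129 arch with limma, 1 of the 7 (Selplg) had an unadjusted p below 0.05 against 12.1% of all genes, and the methods' Tukey-Kramer test called 0 after adjustment over all genes. At a p below 0.05 with no adjustment over genes, which is the threshold of the methods, that test called Selp and Sele between DBA and 129 arch and between DBA and B6 arch, 2 of the 7 in each, against 6.97% and 7.48% of all genes. It called 1 member, Selplg, between B6 and 129 arch, against 6.83% of all genes. With limma, 1.45% of all genes passed between B6 and 129 arch. Between DBA and 129 aorta the study marked Sele, but not Selp, as significantly different. It nevertheless listed a DBA to 129 ratio of 0.4 for Selp, and the ratio here was 0.40. The Tukey-Kramer test here was run on log2 values. Why Selp passed it without adjustment here and was not marked by the study was not tested.

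**Figure D3:**
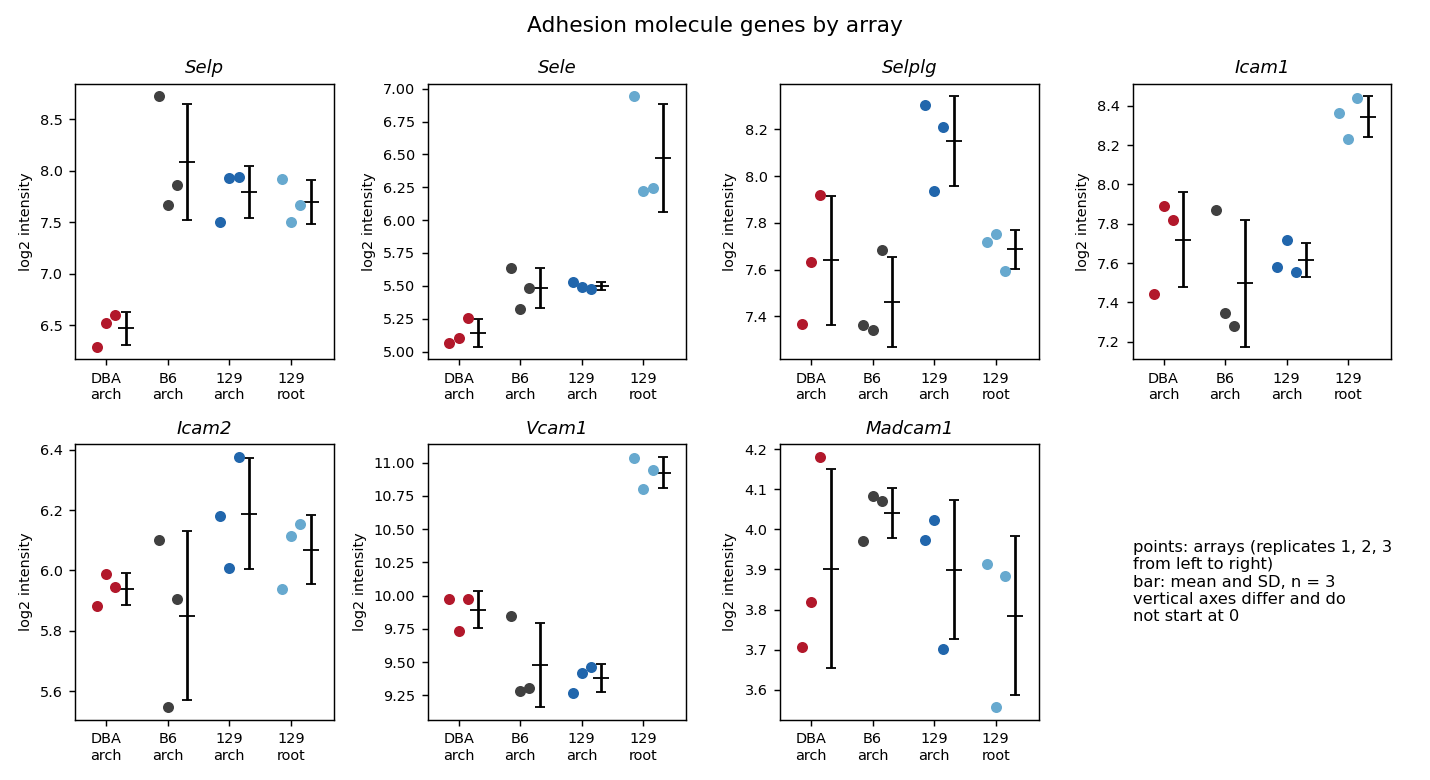
Log2 intensity (vertical axes, which differ between genes) of the 7 members on each array, by group (horizontal axes), with points for replicates 1, 2 and 3 and bars for the mean and SD of 3 arrays. Vcam1 was at 10.80 to 11.03 in the root and at 9.26 to 9.97 on all arch arrays, and Selp was at 6.30 to 6.60 in DBA arch and at 7.50 to 8.72 elsewhere.

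Between the root and arch of 129 mice, 3 members were higher and 1 was lower, whereas 3 did not pass. This contrast was broad, with 15.8% of all genes called, 8.36% higher and 7.45% lower, and with 35.8% not overlapping, against 4 of the 7 members. All 4 calls were kept when the values were centred or quantile normalised. A minimum of 2-fold left Vcam1 alone.

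**Figure D4:**
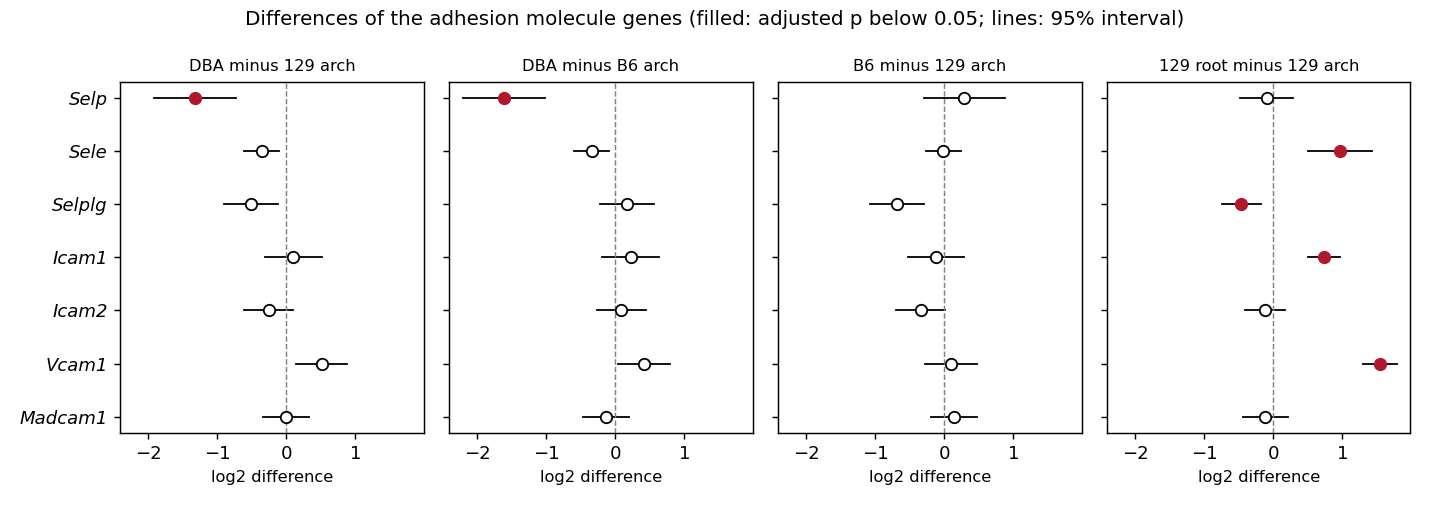
Log2 differences of the 7 members in each contrast (horizontal axes) with 95% intervals as lines, filled where the adjusted p was below 0.05. Selp was filled in both DBA contrasts, at -1.32 and -1.61, and Vcam1, Sele and Icam1 (1.54, 0.97 and 0.73) and Selplg (-0.46) between root and arch.

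The make-up of the root also differed from that of the arch. The mean of the 7 cardiomyocyte genes was 10.61 to 11.01 in the root and 7.31 to 8.14 in the arch of 129 mice, and that of the 6 adipocyte genes 6.45 to 7.12 against 10.33 to 10.53. The 14 endothelial genes had a mean of 9.22 to 9.32 in the root and 9.08 to 9.23 in the arch, with 5 genes higher and 3 lower. The 7 lymphatic and high endothelial genes had a mean of 6.64 to 6.79 against 5.07 to 5.50, with 5 higher. These were the lymphatic genes Lyve1, Prox1, Flt4 and Pdpn, and the dim Chst4 of high endothelium. The high endothelial genes Glycam1 (log2 difference 0.04, adjusted p = 0.880) and Fut7 (-0.20, adjusted p = 0.487) did not pass. On DBA arch replicate 2 the cardiomyocyte mean was 11.96, above the root arrays. On that array Vcam1 was 9.74 and Sele 5.10, both within the range of the other arch arrays, and Icam1 was 7.89, the highest arch value but below all root arrays. The part of the other cell types in the root values was not tested.

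Receptors and ligands of the members were described from lists chosen with earlier results of these data known. Their counts in the root stand beside 8.36% of all genes higher and 7.45% lower. Of 11 leukocyte receptor genes 2 were higher and 1 lower in the root, with a median log2 difference of 0.09 against 0.00 over all genes. Itgal, the LFA-1 chain that binds ICAM-1 and ICAM-2, was 2.64-fold lower in the root (adjusted p = 0.000324). Itgam, the chain of Mac-1, was 1.85-fold higher (adjusted p = 0.0356), a call lost without 129 arch replicate 2 or any root array (range 0.0123 to 0.110 over the alternatives). Cd44, a receptor that can also bind E-selectin, was 1.64-fold higher (adjusted p = 0.0117), a call lost without root replicate 3 (0.0505). None of the 11 passed between strains.

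Scaffolds and enzymes that make selectin ligands were higher in the root for 8 of 18 measured genes and lower for none, with a median of 0.42. Emcn, endomucin of venous and capillary endothelium, was 3.56-fold higher (adjusted p = 6.44e-05). Gcnt1, which builds the branched core of these sugars, was 2.25-fold higher (adjusted p = 0.00911), and Podxl, podocalyxin, 1.79-fold higher (adjusted p = 0.00203). Chst4, a sulfotransferase of high endothelium, was 2.13-fold higher (adjusted p = 0.0104) at a dim level of 5.01 against 3.92. These 4 calls were kept without any 1 array, and that of Chst4 was lost with all 12 arrays in one fit (0.0648, range 0.00262 to 0.0648). Between strains B3gnt5, a glycosyltransferase, passed, at 1.46 ± 0.14 between DBA and B6 arch (adjusted p = 0.00138) and -0.93 ± 0.14 between B6 and 129 arch (adjusted p = 0.0181). The latter call was lost without B6 replicate 2 or 3 or any 129 array (adjusted p up to 0.0807, range 0.00166 to 0.163 over the alternatives). Among the other root calls of this list, that of B3gnt5 was lost without any 1 array (up to 0.138). That of B4galt1 was lost without 129 arch replicate 2 or any root array (up to 0.0704). Those of Cd34 and St3gal4 were kept without any 1 array.

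Genes in the list of chemokines that make rolling leukocytes arrest went both ways in the root, 3 higher and 2 lower of 9 measured. The 9 include Ackr1, which encodes a chemokine receptor. Ccl2, which draws monocytes, was 3.88-fold higher (adjusted p = 0.00859), and Cx3cl1, the membrane-bound fractalkine, 1.87-fold higher (adjusted p = 0.0304). The call of Cx3cl1 was lost without 129 arch replicate 1 or 3 or root replicate 1 or 2 (up to 0.0975, range 0.00819 to 0.0975). Cxcl9 and Ccl5, which draw T cells, were 15.1-fold and 1.69-fold lower (adjusted p = 4.65e-05 and 0.0111). Cxcl9 had a mean of 4.39 in the root and 8.30 in the arch. No gene of this list passed between strains.

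In the list drawn up around cytokine and NF-kB induction of the adhesion molecules, 5 of 24 genes were higher and 1 lower in the root. The list also held NF-kB inhibitor genes such as Nfkbia, and Klf2 and Klf4, which were among the calls. Its counts are therefore not counts of inducers alone. The median was 0.17, and 15.8% of all genes were called in this contrast. Il1b, the cytokine interleukin-1 beta, was 2.65-fold lower (adjusted p = 0.0283), which did not pass without root replicate 1, 2 or 3 (up to 0.0914, range 0.00524 to 0.0914). Its receptor Il1r1 was 1.61-fold higher (adjusted p = 0.00334), and Il13ra1, a receptor chain for interleukin-13, 1.86-fold higher (adjusted p = 0.00176). Klf2, an endothelial factor induced by laminar flow, was 1.86-fold higher (adjusted p = 0.0127), a call lost without root replicate 3 (0.0525). Between strains 1 gene passed, the dim lymphotoxin gene Lta, at 0.78 ± 0.13 between DBA and B6 arch (adjusted p = 0.0238). That call was lost without any DBA array, B6 replicate 2 or 3 or 129 replicate 1 (up to 0.0902, range 0.00465 to 0.146).

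Genes of the Weibel-Palade body and of its exocytosis numbered 15, of which 2 were higher and 1 lower in the root. The median was 0.10, and 15.8% of all genes were called in this contrast. Plat, the tissue plasminogen activator stored there, was 1.79-fold higher in the root (adjusted p = 0.00449). It was also higher in B6 arch than in DBA and 129 arch, 1.91-fold and 1.92-fold (adjusted p = 0.0162 and 0.0178). These strain calls were lost without B6 replicate 3 (both), DBA replicate 1 or 2 (against DBA, up to 0.0691, range 0.00297 to 0.140) or any 129 array (against 129, up to 0.0711, range 0.00189 to 0.162). Stxbp2, which guides granule fusion, was 2.27-fold lower in the root (adjusted p = 0.000428), and Mlph, a granule adaptor, 1.43-fold higher (adjusted p = 0.0418). Mlph did not pass without 129 arch replicate 1 or 2 or any root array (up to 0.130, range 0.00961 to 0.130). No gene of this list passed between DBA and 129 arch.

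Junctional and other immunoglobulin-family adhesion molecules had 1 gene higher and 2 lower of 17 in the root, with a median of -0.03. Called genes made up 15.8% of all genes in this contrast. Esam, of endothelial junctions, was at -0.48 ± 0.10 (adjusted p = 0.0201), Nectin2 at -0.44 ± 0.11 (0.0391) and Jam2 at 0.29 ± 0.08 (0.0466). The calls of Nectin2 and Jam2 were lost without any 1 of the 6 arrays (up to 0.125 and 0.132, range 0.0143 to 0.340 and 0.00232 to 0.265), and that of Esam without 129 arch replicate 2 or 3 or root replicate 1 or 2 (up to 0.0722, range 0.00131 to 0.0722). Bcam, a laminin receptor, was higher in DBA and in B6 arch than in 129, 1.55-fold and 1.64-fold (adjusted p = 0.0472 and 0.0278). The call in DBA was lost without any DBA or 129 array or B6 replicate 3 (up to 0.176, range 0.00859 to 0.192), and that in B6 without DBA replicate 3, B6 replicate 1 or 3 or any 129 array (up to 0.121, range 0.00218 to 0.163).

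**Figure D5:**
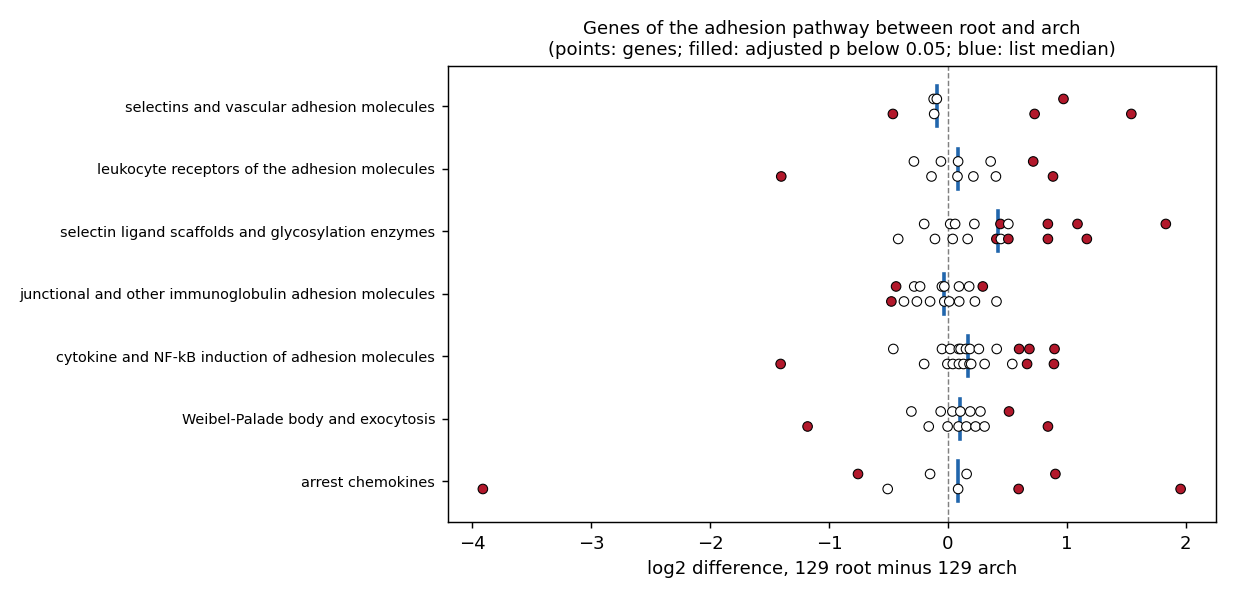
Log2 difference between root and arch of 129 mice (horizontal axis) for each gene of the 7 members and the 6 related lists (vertical axis), filled where the adjusted p was below 0.05, with the list median in blue. Filled genes of the selectin ligand list lay on the side of the root (8 of 18), and those of the chemokine list on both sides, from Cxcl9 at -3.91 to Ccl2 at 1.96.

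Genes with the profile closest to each called member over the 12 arrays were found by the root mean square difference of log2 values, each gene centred on its own mean. For Vcam1, whose own root mean square about its mean was 0.63, these were Pcdh9, Nsg1 and Foxd1, at 0.09 to 0.17. For Icam1 (0.37) they were Tctn3, Pdzrn3 and Abca8b, at 0.10 to 0.14. For Sele (0.53) they were Ms4a6b, H2-Eb1 and Gpr65, at 0.18 to 0.20, and for Selplg (0.30) Lhx1, Arhgap30 and Gpr132, at 0.13 to 0.14. For Selp (0.67) the closest were AA388235, Plekhh2 and Atp10b, at 0.30 to 0.32. No other member was among the 3 closest to any of these called members. Icam2 and Madcam1 were not examined in this way.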

How the data were processed

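Aortic RNA pools of DBA, B6 and 129 mice were hybridised by the authors to Affymetrix Mouse Gene 2.1 ST arrays on a single plate, from 250 ng of total RNA. The deposited values are log2 intensities per probe set, normalised by the authors with a method, version and genome build not given in the sources used here. The submitters' processing notes name Affymetrix Expression Console. Values spanned 0.668 to 13.6, from which the log base was taken. Of 41345 probe sets, 23521 carried 1 gene symbol in the platform annotation, 1820 several and 16004 none. The brightest probe set stood for a gene, which left 22180 genes. Dim genes were kept, and precision is limited by 3 arrays per group.

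Differences were fitted with limma 3.58.1 in R 4.3.3 (lmFit, eBayes) on the 9 arch arrays with strain as factor, as the study compared 3 strains in a single analysis, and on the 6 arrays of 129 mice for the root. Errors are SE for differences and SD for means. The fit was tested on simulated data. Members, 6 pathway lists, 13 marker lists, the naming rule and the alternatives were chosen with earlier results of these data known. All 7 members were named, up to 4 called genes of each pathway list, the 3 closest profiles of each called member, and the 3 measured neighbours to each side of Selp and Sele. No set test was made. Alternatives for called pathway genes and F5 were added after seeing the data. Some list entries were not analysed here. Upstream sequences came from RefSeq.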

Additional observations from a re-analysis of the deposited data

How the results depend on the processing

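Number of members called, of 7. Between DBA and 129 arch it was 1, and 0 after quantile normalisation, 0 with the methods' Tukey-Kramer test adjusted over all genes, and 0 to 1 without 1 array. Between DBA and B6 arch it was 1, 2 with array weights (Vcam1 added), 0 with the 6 arrays of the contrast alone, 0 with adjusted Tukey-Kramer, and 0 to 1 without 1 array. Between B6 and 129 arch it was 0, and 1 with all 12 arrays in one fit (Selplg, adjusted p = 0.0448). Between root and arch it was 4, and 1 at a minimum of 2-fold. Selplg dropped out there, which left 3, with all 12 arrays in one fit, with the mean of a gene's probe sets, and in 5 of the 6 fits without 1 array. Without the DBA and B6 arrays that held other organs it was 1, 1 and 0 between strains. The 129 arch arrays and B6 replicate 3, with the highest T cell and thymocyte means, were kept in that fit. With Tukey-Kramer and no adjustment over genes, a setting added after seeing the data, it was 2, 2 and 1 between strains. The cause of the changes was not tested.

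Replicate numbers are shared by all groups but do not pair the pools by the labels. Deviations of same-numbered arrays correlated at 0.05 to 0.06 between DBA and 129 arch and 0.04 to 0.05 between root and arch. In both, 3 of 3 arrays were closest to their own number. The correlations were -0.09 to 0.01 between DBA and B6. Between B6 and 129 arch they were -0.07 to 0.11, and only replicate 2 was closest to its own number. With the replicate number as a block the count of members was 0 in both DBA contrasts (Selp, adjusted p = 0.137 and 0.0782) and 3 between root and arch (Selplg lost, 0.0856), and all genes called fell from 320 to 217 and from 344 to 186.

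Directions turned in these cases, none of them called, with the range over fits without 1 array. Between DBA and 129, Madcam1 ranged from -0.14 (without DBA replicate 3) to 0.0996 and was -0.10 without 129 replicate 3. Between DBA and B6, Icam2 ranged from -0.064 (without B6 replicate 2) to 0.213. Between B6 and 129, Sele ranged from -0.092 to 0.062 (without B6 replicate 2), Selp from -0.027 (without B6 replicate 1) to 0.501 and Vcam1 from -0.086 (without B6 replicate 1) to 0.193. Selp at -0.027 and Vcam1 at -0.086 were the same without both arrays of other organs, and Vcam1 was -0.063 with array weights. Between root and arch, Selp ranged from -0.238 to 0.00468 (without root replicate 2). Over all member differences and alternatives, 477 kept direction and call, 25 lost a call, 2 gained one and 10 turned.

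All genes called numbered 73 to 568 between DBA and 129, 81 to 1348 between DBA and B6, 57 to 1412 between B6 and 129 and 2212 to 4493 between root and arch. Brightness limits Madcam1, below the array median.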
